A study of Mus musculus with 3 samples.

Results

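The 7 myeloid C-type lectin receptor genes described here are Clec4n, Clec7a, Clec4d, Clec4e, Clec5a, Clec4a2 and Clec12a. They were taken by gene symbol, and all 7 were found among the 16072 named genes of the expression table. RNA-seq was performed on bone marrow (BM) cells labelled as Ly6G+ from C57BL/6 mice that carried B16.F10 melanoma cells, injected under the skin 1 week before the vector. AAV-Ctrl mice (2 libraries, named here AAV-Ctrl 1 and AAV-Ctrl 2) received an adeno-associated virus without the cytokine, and the AAV-IL-27 mouse (1 library) received a virus from which the animal makes IL-27, its subunits joined by a linker and driven by the ubiquitous CAG promoter. Both vectors were given into muscle, all groups carried the tumour cells, and the labels give no age for these animals. The labels speak of 4 mice but name these 3 libraries, and assign each of them to an animal of its own. A further column of the table, named as an AAV-IL-27 replicate, matches no listed sample and was not analysed here. The comparison asks how systemic IL-27 alters the expression of these receptors in BM myeloid cells.

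C-type lectin receptors are surface proteins by which neutrophils, monocytes, macrophages and dendritic cells bind sugars and lipids of fungi, mycobacteria and dying cells. The activating members signal through the kinase Syk, either by a tyrosine motif of their own, as Dectin-1 does, or through the adaptor chains FcRγ (Fcer1g), DAP12 (Tyrobp) and DAP10 (Hcst), and Syk passes the signal to the CARD9, BCL10 and MALT1 complex. The inhibitory members carry a motif that recruits the phosphatases SHP-1 (Ptpn6) and SHP-2 (Ptpn11). The activating receptors considered here are Dectin-2 (Clec4n), MCL (Clec4d), Mincle (Clec4e), Dectin-1 (Clec7a) and MDL-1 (Clec5a), and the inhibitory receptors are DCIR (Clec4a2) and MICL (Clec12a).

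All values are FPKM, in which fragment numbers are scaled for the length of the transcript and the depth of the library. Comparisons of level between genes therefore rest on the transcript length that was used. Some receptors have transcripts of unlike length, from 707 to 2272 nt for Clec7a and from 858 to 3747 nt for Clec5a. Differences are on the log2(FPKM + 1) scale, the AAV-IL-27 value less the AAV-Ctrl average, and on it changes of weakly expressed genes appear too small. A gene was called higher or lower when the AAV-IL-27 library lay 1 log2 unit or more beyond each AAV-Ctrl library. The 9130 genes averaging 1 FPKM or more over the libraries were tested. All 7 receptors passed that filter. The depth was estimated at 19000000 to 19400000 fragments per library. Over all genes tested the median difference was -0.01, and the difference between the AAV-Ctrl libraries had a median size of 0.087 and a 95th percentile of 0.335. With 1 AAV-IL-27 library there was no replicate error for that group, and an exact permutation test could not give a one-sided p below 0.333. Adjusted p-values below come from limma fitted over all genes, in which the AAV-IL-27 library was assumed to vary like the AAV-Ctrl libraries. They rest on these samples only, and limma draws the spread of each gene toward that of genes of like level. For a gene whose AAV-Ctrl libraries lie far apart, the limma error is therefore smaller than its own spread would give.

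Of the 7 receptors, 1 was called higher, Clec4n, and 0 were called lower, while 0.307% of all genes tested were called higher and 2.32% lower. Clec7a had the second largest difference, 0.66, and the other 5 receptors differed by 0.03 to 0.09. The median over the 7 receptors was 0.09. By limma, the receptors with a Benjamini-Hochberg adjusted p under 0.05 were again Clec4n alone as higher (2.84% of all genes) and 0 as lower (7.65% of all genes).

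**Figure D1:**
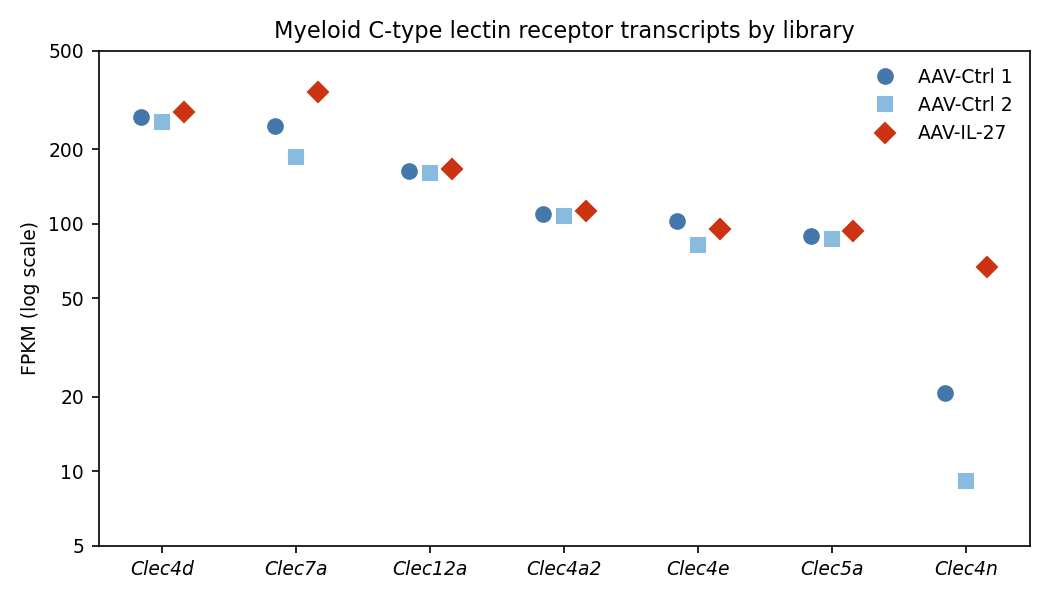
FPKM of the 7 receptors in each library on a log scale, ordered by the AAV-Ctrl mean, with 1 point per library and no error bars. Clec4n is the lowest receptor in every library at 20.7 and 9.1 in AAV-Ctrl against 66.8 in AAV-IL-27, while the points of Clec4d, Clec12a, Clec4a2 and Clec5a nearly coincide.

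Clec4n (NCBI Gene 56620, plus strand of chromosome 6 of GRCm38, 123229843 to 123247024) encodes Dectin-2, a receptor for fungal mannans that pairs with FcRγ. Its FPKM was 20.7 in AAV-Ctrl 1 and 9.1 in AAV-Ctrl 2 against 66.8 in AAV-IL-27. The AAV-IL-27 library was above both AAV-Ctrl libraries, and these were themselves far apart. Against the AAV-Ctrl mean of 14.9 ± 8.18 (SD, n = 2) the level was 4.49 times as high, with 3.23 times the level of AAV-Ctrl 1 and 7.34 times that of AAV-Ctrl 2. On the log2 scale the difference was 2.20, and it ranked 6 among 9130 genes. The limma call of Clec4n rests on a spread drawn toward that of other genes, not on the gap between its own controls alone.

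The AAV-Ctrl libraries differed more in Clec4n than in nearly all other genes. AAV-Ctrl 1 had 2.27 times the Clec4n FPKM of AAV-Ctrl 2, a log2 difference of -1.10 (AAV-Ctrl 2 minus AAV-Ctrl 1), and only 4 of the 9130 genes, Clec4n included, had a difference of that size or more between these libraries. Of the 28 genes called higher, Clec4n was the only one with so large a difference between the controls. The distance to the nearer AAV-Ctrl library, 1.64 log2 units, nevertheless exceeded the distance between the controls. Ranked by that nearer distance, Clec4n stood at 10.

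The gaps between the libraries were larger than the estimated counting error. With the shortest Clec4n transcript, of 1136 nt, the FPKM of AAV-Ctrl 1 stood for about 419 fragments, that of AAV-Ctrl 2 for 188 and that of AAV-IL-27 for 1374. The exact Poisson 95% intervals in FPKM ran from 18.7 to 22.7, from 7.85 to 10.5 and from 63.3 to 70.4, and no pair of them overlapped. The intervals take in counting error alone, not the spread between animals, and rest on a depth fit in which 63.7% to 67.1% of the low values lay near whole fragments.

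Clec4e, Clec4d and Clec4n lie side by side on chromosome 6, and Clec4d and Clec4e had differences near 0. Clec4d (NCBI Gene 17474, plus strand of chromosome 6, 123262107 to 123275268) encodes MCL, which binds mycobacterial glycolipid. Its FPKM was 271 in AAV-Ctrl 1 and 258 in AAV-Ctrl 2 against 282 in AAV-IL-27, and the log2 difference was 0.09 (limma adjusted p = 0.475). The AAV-IL-27 value was the highest, by a margin smaller than the difference between the AAV-Ctrl libraries.

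Clec4e (NCBI Gene 56619, minus strand of chromosome 6, 123281789 to 123289871) encodes Mincle, the receptor for mycobacterial cord factor that acts with MCL and FcRγ. Its FPKM was 102 in AAV-Ctrl 1 and 81.7 in AAV-Ctrl 2 against 95.5 in AAV-IL-27, and the log2 difference was 0.06 (limma adjusted p = 0.807). It was the only receptor whose AAV-IL-27 value lay between the AAV-Ctrl values. The sign of its difference depended on the control, being -0.10 against AAV-Ctrl 1 and 0.22 against AAV-Ctrl 2. The AAV-Ctrl libraries differed by -0.32, and 5.67% of genes differed by as much.

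The proportion of Clec4n among the receptors was highest in AAV-IL-27. The ratio of Clec4d to Clec4n FPKM was 13.1 in AAV-Ctrl 1 and 28.4 in AAV-Ctrl 2 against 4.22 in AAV-IL-27. Clec4n made up 2.06%, 1.02% and 5.78% of the summed FPKM of the 7 receptors in the same order, and that sum was 1004, 891 and 1156. Clec4n was still the receptor with the lowest FPKM in all 3 libraries.

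Clec7a (NCBI Gene 56644, minus strand of chromosome 6, 129461591 to 129472785) encodes Dectin-1, the receptor for fungal beta-glucan. Its FPKM was 248 in AAV-Ctrl 1 and 187 in AAV-Ctrl 2 against 340 in AAV-IL-27. The AAV-IL-27 library was above both AAV-Ctrl libraries, with 1.56 times their mean of 217 ± 43.6 (SD, n = 2). The log2 difference was 0.66, it ranked 114 of all genes tested, and limma did not call it, by a narrow margin. The AAV-IL-27 value lay 0.45 log2 units above AAV-Ctrl 1, while AAV-Ctrl 2 lay 0.41 below AAV-Ctrl 1. A difference between controls of that size was reached by 2.77% of genes. By FPKM, Clec7a came second among the 7 receptors, behind Clec4d, in both AAV-Ctrl libraries and first in AAV-IL-27. Its share of their summed FPKM was 24.7%, 20.9% and 29.4%.

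Clec5a (NCBI Gene 23845, minus strand of chromosome 6, 40574898 to 40585805), apart from the other receptors on the chromosome, encodes MDL-1, which signals through DAP12 and DAP10. Its FPKM was 88.9 in AAV-Ctrl 1 and 86.6 in AAV-Ctrl 2 against 93.1 in AAV-IL-27, and the log2 difference was 0.09 (limma adjusted p = 0.494). The AAV-IL-27 value was the highest, 0.07 log2 units above AAV-Ctrl 1. That margin was larger than the difference between the AAV-Ctrl libraries in Clec5a itself, -0.04. It was less than the median size of 0.087 by which genes differed between the controls.

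The inhibitory receptors had the smallest log2 differences of the 7. Clec4a2 (NCBI Gene 26888, plus strand of chromosome 6, 123122690 to 123143999) encodes DCIR and had an FPKM of 110 in AAV-Ctrl 1 and 108 in AAV-Ctrl 2 against 113 in AAV-IL-27, and the log2 difference was 0.05 (limma adjusted p = 0.696). Clec12a (NCBI Gene 232413, plus strand of chromosome 6, 129349783 to 129365303) encodes MICL, which binds uric acid crystals, and had an FPKM of 164, 161 and 166, a log2 difference of 0.03 (limma adjusted p = 0.796). For both genes the libraries lay close together and AAV-IL-27 was the highest. The Clec4a2 value is uncertain, because its transcripts match other genes and the handling of shared reads is not given in the sources used here. The matches were 96.3% over 436 nt with Clec4b1 and 85.1% over 786 nt with Clec4a4, both under 2 FPKM in every library. Genes with higher FPKM matched less closely, Clec4a3 at 80.8% over 637 nt and Clec4a1 (14.6, 16.2 and 9.26 FPKM) at 76.6% over 436 nt. For Clec4n the longest matching stretches were 80.8% over 432 nt with Clec4b2 and 82.8% over 378 nt with Clec4b1, both genes under 2 FPKM in every library. A shorter stretch of 45 nt matched Clec4a3, at 12.0, 12.8 and 9.77 FPKM, at 84.4%.

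The order of the receptors by level was nearly the same throughout. In AAV-Ctrl, Clec4d was first, followed by Clec7a, Clec12a and Clec4a2, and Clec4n was last. Clec4e and Clec5a exchanged places between the AAV-Ctrl libraries, since the Clec4e values of 102 and 81.7 enclosed those of Clec5a, so these neighbours did not differ beyond their spread. The AAV-Ctrl values of the other neighbours did not overlap, although for Clec4d and Clec7a the difference of the means was close to the SD of Clec7a.

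All 7 receptors were lower in AAV-Ctrl 2 than in AAV-Ctrl 1, with a median difference of -0.07, against 0.0016 over all genes tested. The share of all genes lower in AAV-Ctrl 2 was not counted, so the 7 of 7 has no background beside it. In 6 of 7, all but Clec4e, the order was AAV-Ctrl 2, then AAV-Ctrl 1, then AAV-IL-27, an order found in 22.5% of all genes. The same 6 lay above both AAV-Ctrl libraries by any amount, as did 38.9% of all genes, and 0 of 7 lay below both, as did 41.9%. For 4 of these 6 the log2 difference was under 0.10.

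**Figure D2:**
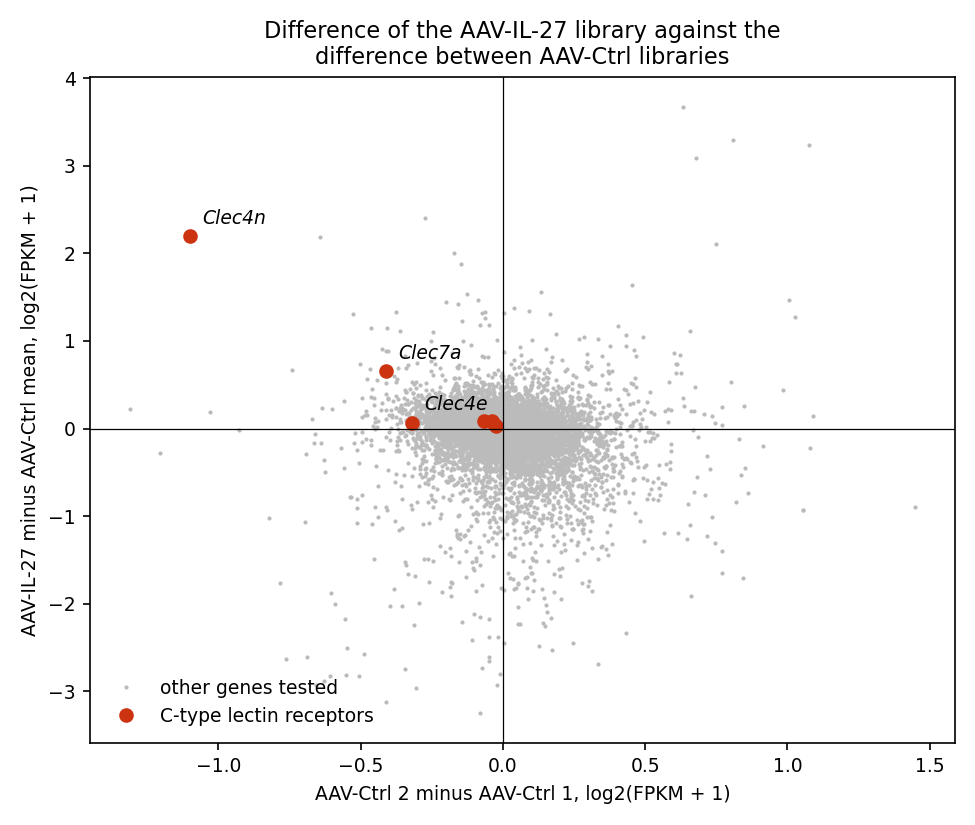
Difference of the AAV-IL-27 library from the AAV-Ctrl mean (vertical) against the difference between the AAV-Ctrl libraries (horizontal), both in log2(FPKM + 1), for 9130 genes (grey) and the 7 receptors (red). Clec4n stands at -1.10 and 2.20, Clec7a at -0.41 and 0.66, and the other receptors lie near the horizontal line at 0.

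No other listed gene of the clusters that hold Clec4n and Clec7a lay 1 log2 unit beyond both AAV-Ctrl libraries. Over all genes tested 0.307% were called higher and 2.32% lower, so the lack of calls among so few genes is unremarkable. The Dectin-2 cluster spans 368 kb of chromosome 6 and holds 9 of the listed lectin genes, in the order Clec4a1, Clec4a3, Clec4a4, Clec4b1, Clec4a2, Clec4b2, Clec4n, Clec4d and Clec4e. Clec4a1 had an FPKM of 14.6 and 16.2 in AAV-Ctrl against 9.26 in AAV-IL-27, and the log2 difference was -0.67, on the opposite side to Clec4n. Clec4a3 (-0.31) and Clec4b1 (-0.33) were also below both AAV-Ctrl libraries. None of the 3 reached the threshold of 1 log2 unit, while by limma Clec4a1 passed as lower (adjusted p = 0.0132).

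The Dectin-1 cluster spans 327 kb and holds 8 listed genes, Clec2d, Clec12a, Clec12b, Clec1b, Clec9a, Clec1a, Clec7a and Olr1. The genes at its ends lay above both AAV-Ctrl libraries. Clec2d, whose product is a ligand of a natural killer cell receptor, had an FPKM of 34.5, 31.1 and 38.6, a log2 difference of 0.23. Olr1, the receptor for oxidised low-density lipoprotein and the neighbour of Clec7a, had an FPKM of 7.97, 6.81 and 9.0, a log2 difference of 0.26. Clec1b, between Clec12a and Clec7a, had 6.13, 5.8 and 4.84 (-0.25).

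**Figure D3:**
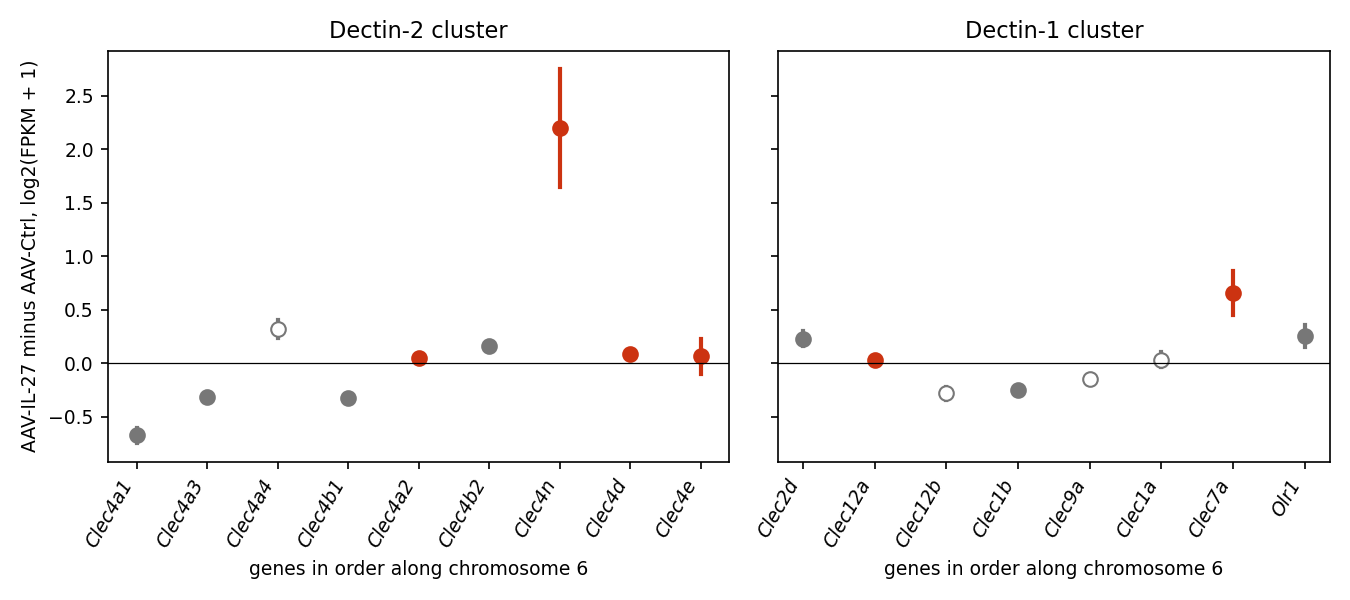
Difference of the AAV-IL-27 library from AAV-Ctrl in log2(FPKM + 1) for genes in order along chromosome 6 (distances not to scale). A line joins the differences against AAV-Ctrl 1 and against AAV-Ctrl 2. The receptors are in red, without Clec5a, which lies outside both clusters and is not shown. Genes under a mean FPKM of 1 are open points. Clec4n at 2.20 stands between Clec4b2 at 0.16 and Clec4d at 0.09, and Clec7a at 0.66 is the highest point of its cluster.

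Promoter sequence from RefSeq (GRCm38.p6) was held for 6 of the 7 receptors, all but Clec4n. The 250 bases before the transcript start that the promoter table uses were searched on both strands for 6 motifs, namely the STAT element GAS (TTCNNNGAA), the interferon-stimulated response element ISRE (GAAA, any 2 bases and GAAA), and sites of PU.1 (GAGGAAG), C/EBP (TTGCNNAA), AP-1 (TGANTCA) and NF-kappaB (GGGNNTTCC). That start is not always the end of the gene given above: the Clec12a window lies inside the gene, and the Clec7a window overlaps the gene by 6 bases. Windows of this length from 32851 promoters held them in 7.02%, 2.98%, 10.6%, 9.56%, 6.75% and 4.98%. The windows below are those of Clec7a, which had the largest difference among the 6, of Clec4d, the neighbour of Clec4n with a flat profile, and of Clec4a2, the only one with a GAS. Capitals mark the motif letters, which for PU.1 in Clec4d read as the reverse complement. They lie at chr6:129472780-129473029 (minus strand), chr6:123261857-123262106 (plus strand) and chr6:123122440-123122689 (plus strand).
Clec7a: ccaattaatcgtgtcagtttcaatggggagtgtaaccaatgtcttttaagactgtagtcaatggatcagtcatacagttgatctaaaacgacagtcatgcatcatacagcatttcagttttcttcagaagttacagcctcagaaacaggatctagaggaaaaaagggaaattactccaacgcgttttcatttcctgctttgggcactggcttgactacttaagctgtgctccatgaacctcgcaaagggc
Clec4d: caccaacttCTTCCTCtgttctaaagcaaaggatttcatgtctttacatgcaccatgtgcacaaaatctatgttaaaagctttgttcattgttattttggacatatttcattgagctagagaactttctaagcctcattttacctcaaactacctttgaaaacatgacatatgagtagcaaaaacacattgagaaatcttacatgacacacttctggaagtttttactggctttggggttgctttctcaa
Clec4a2: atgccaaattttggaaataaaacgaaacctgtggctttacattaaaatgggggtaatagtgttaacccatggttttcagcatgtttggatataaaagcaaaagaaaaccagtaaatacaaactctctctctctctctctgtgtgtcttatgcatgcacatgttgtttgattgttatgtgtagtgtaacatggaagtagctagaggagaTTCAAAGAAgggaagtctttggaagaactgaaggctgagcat
Clec7a matched none of the 6 motifs in this window. Clec4d had 1 PU.1 match, from 241 to 235 bases before the start, and Clec4a2 had its GAS match from 42 to 34 bases before the start. Among the receptors not printed, Clec5a had 2 PU.1 matches, Clec4e had 1 C/EBP match, and Clec12a had 1 match each for AP-1, C/EBP and PU.1. A match is a string of letters in a window and says nothing of binding, and 0 of these 6 windows held the ISRE or the NF-kappaB letters.

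Of 23 listed genes that signal below the receptors, 21 passed the filter, 0 were called higher and 0 lower (0 and 0 by limma too), and their median log2 difference was 0.04. Since 0.307% of all genes tested were called higher and 2.32% lower, 0 calls among 21 genes are unremarkable. Above both AAV-Ctrl libraries were 11 of the 21, and 7 were below both, against 38.9% and 41.9% of all genes tested.

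Among the adaptors, Fcer1g, the partner of Dectin-2, had an FPKM of 1614 in AAV-Ctrl 1 and 1574 in AAV-Ctrl 2 against 1635 in AAV-IL-27, and the log2 difference was 0.04. The ratio of Fcer1g to Clec4n FPKM was 78.1 and 173 in the AAV-Ctrl libraries against 24.5 in AAV-IL-27, and the adaptor transcript exceeded that of the receptor in every library. Tyrobp had 2356, 2449 and 2675 (0.16), and Hcst had 81.7, 82.1 and 89.0 (0.12), each highest in AAV-IL-27.

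Among the activators, Fgr, encoding a Src family kinase, had a log2 difference of 0.01, and Prkcd, encoding the kinase that acts on CARD9, had -0.00425. Syk and Card9, singled out after their values were seen, had 0.05 and -0.10. Syk stood at 150, 151 and 155 FPKM. Of the inhibitors, Ptpn6, encoding SHP-1, had the largest difference of the signalling genes, with an FPKM of 389, 395 and 474 (0.27). Inpp5d, encoding the lipid phosphatase SHIP1, had 0.14 and Cbl, encoding a ubiquitin ligase that turns Syk over, had -0.10.

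Of the other C-type lectins tested, 9 of 12 lay below both AAV-Ctrl libraries and 3 above both, against 41.9% and 38.9% of all genes tested. Some were near the filter, with means of 1.15 (Clec10a), 1.54 (Cd72) and 1.69 FPKM (Clec4b1) among those below, and 1.18 (Clec4b2) among those above. Of 27 listed, 25 were in the table and 12 passed the filter, with a median log2 difference of -0.32. Of these, 0 were called higher and 1 was called lower, against 0.307% and 2.32% of all genes tested. That gene was Mrc1, the macrophage mannose receptor, with an FPKM of 26.8 and 25.9 in AAV-Ctrl against 4.24 in AAV-IL-27 (-2.38). Cd302 had 6.81, 6.31 and 2.86 (-0.97) and also passed as lower by limma (adjusted p = 0.0058). Ly75, encoding the endocytic receptor DEC-205, had 19.3, 19.1 and 17.2 (-0.15).

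Markers of the cells that a Ly6G+ preparation can hold are given beside these values, and in bulk RNA fewer cells of a type and less RNA per cell cannot be told apart. Neutrophil transcripts were abundant, with S100a9, S100a8 and Ngp, those of calprotectin and of a granule protein, at 24209 FPKM or more in every library. Ly6g, the labelled antigen, was at 712, 766 and 586, lowest in AAV-IL-27. The 12 neutrophil markers had a median difference of -0.05 and 0 calls in either direction, with 6 below both AAV-Ctrl libraries and 3 above both. Over all genes tested, 41.9% lay below both and 38.9% above both. All 11 macrophage markers were below both AAV-Ctrl libraries, 10 were called lower, and their summed FPKM was 792, 782 and 228 (median log2 difference -1.66). The macrophage list and Mrc1 were lower in AAV-IL-27, while Clec4n and Clec7a were higher. Which cells carried these transcripts was not tested.

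Of the 9 monocyte markers, 8 passed the filter, 0 lay 1 log2 unit beyond both AAV-Ctrl libraries, 4 were above both by any amount and 2 below, and the summed FPKM was 1121, 1184 and 1241, of which most was Ly6c2 at 1023, 1086 and 1145. Their median difference was 0.11, with Csf1r at -0.02. Ccr2 (0.53), Ms4a6c (0.51) and F13a1 (0.46) were above both, and by limma 2 markers passed as lower, Irf8 (-0.62, adjusted p = 0.0195) and Fcgr1 (-1.03, adjusted p = 0.0097). Of the 7 dendritic cell markers, 5 (Flt3, Zbtb46, Xcr1, Siglech and Ccr7) had a mean under 1 FPKM, and the summed FPKM was 20.5, 17.1 and 26.9. Cd83 had a difference of -0.63. Itgax, the CD11c integrin chain, made up most of that sum, with an FPKM of 17.3 in AAV-Ctrl 1 and 11.9 in AAV-Ctrl 2 against 24.6 in AAV-IL-27 (0.74). The part of these markers in the Clec4n and Clec7a values was not tested.

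By profile over the 3 libraries, the listed genes most like Clec4n were Itgax, Clec7a and Siglecf, a marker of eosinophils whose list otherwise lay lower (4 of 6 tested eosinophil and basophil markers below both AAV-Ctrl libraries, median -0.46). The distance between centred log2(FPKM + 1) profiles was 1.26, 1.35 and 1.49 log2 units. Siglecf had an FPKM of 9.49, 7.44 and 12.4, so all 3 genes shared the order AAV-Ctrl 2, AAV-Ctrl 1, AAV-IL-27 with Clec4n at a smaller range. No receptor had a difference below 0, so no such comparison was made for a fall.

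**Figure D4:**
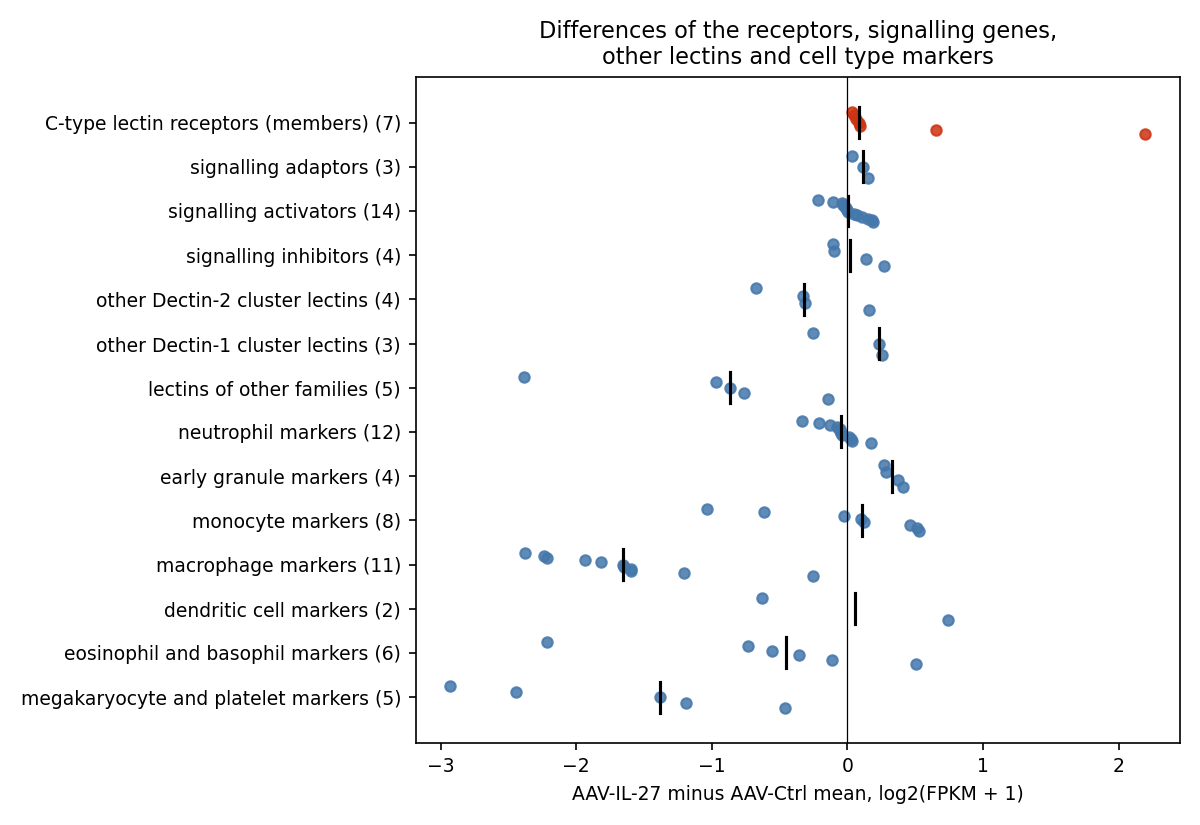
Log2 difference of the AAV-IL-27 library from the AAV-Ctrl mean for each gene that passed the filter (points), by gene list, with the list median as a black bar and the number of genes in parentheses. The receptors have Clec4n at 2.20 apart from a group near 0. The signalling adaptors, activators and inhibitors have medians of 0.12, 0.0018 and 0.02. The macrophage markers lie to the left with a median of -1.66.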

How the data were processed

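The authors deposited FPKM values with 2 decimals, made from oligo-dT-enriched, strand-marked (dUTP) libraries sequenced on DNBSEQ at BGI. The build is mm10 per the labels, and the aligner and counting tool are not given in the sources used here. Of 16073 rows, 1 without a symbol was left out. In the table, 1 more column of per-sample values carries the name of an AAV-IL-27 replicate and was left unused because no listed sample matches it, so n = 1 for AAV-IL-27 describes the libraries analysed here and not the whole table.

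Differences used log2(FPKM + 1), with a pseudocount of 1, on the 9130 genes whose mean FPKM was 1 or more. limma 3.58.1 (R 4.3.3, trend) had 1 residual degree of freedom and 5.07 prior degrees. At an unadjusted p under 0.05 it called 2379 genes. Low FPKM values of single-transcript genes rise in steps of 1 fragment, which gave the depth (70 nt taken from each length). Only 63.7% to 67.1% of 160 to 195 low values lay within 0.1 of a whole fragment, so no count test was run across genes and fragment numbers are estimates. Transcripts were compared with BLAST 2.17.0 on GENCODE M21, and gene positions are those of RefSeq. Calculations and plots were made in Python 3.11.15 (pandas 2.3.3, numpy 2.4.6, matplotlib 3.10.9, scipy 1.17.1). Scripts were tested on simulated data.

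The receptors and gene lists were chosen with earlier results of these data known. The text names every receptor, and of the other lists the called genes or their range and the 3 genes with the highest mean FPKM, plus the 3 listed genes nearest to Clec4n. One gene that this rule names is not reported here. Ly6g was added as the labelled antigen. Alternatives were pseudocounts, rescalings, filters, thresholds, limma and leaving out each AAV-Ctrl library.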

Additional observations from a re-analysis of the deposited data

How the results depend on the processing

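The AAV-IL-27 group has 1 library here, so its spread was not measured, and limma borrows that of AAV-Ctrl. FPKM without counts limits the precision, which is lowest for Clec4n. No paired analysis was possible because each library is assigned to an animal of its own and the labels pair none of them.

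Clec4n was the 1 receptor called higher, and 0 were called lower, with a pseudocount of 0.1, equal FPKM totals, median-ratio rescaling, no filter on low values, a mean FPKM of at least 5, a threshold of 0.5 log2 units, limma, and without either AAV-Ctrl library. Counting any value beyond both AAV-Ctrl libraries gave 6 higher receptors as deposited, 6 with equal FPKM totals and 6 with median-ratio rescaling, the rescaled counts having been added after seeing the data. Leaving out AAV-Ctrl libraries gave log2 differences from 1.64 to 2.75 for Clec4n, from 0.45 to 0.86 for Clec7a and from 0.06 to 0.13 for the median. The other 5 receptors ranged from -0.10 to 0.22 under all alternatives, with 1 change of sign, Clec4e without AAV-Ctrl 2. Rescaling moved the median of all genes by at most 0.037. Over all genes, the 28 higher and 212 lower calls became 259 and 698 with limma, 143 and 640 at the 0.5 threshold, and 3549 and 3829 beyond both by any amount. The lower calls became 396 with a pseudocount of 0.1 and 93 at the filter of 5 FPKM, and the higher calls 49 without AAV-Ctrl 2.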

Other observations

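Over all 9130 genes, the profiles nearest to that of Clec4n were those of Csf1, Egr1, Ccl3, Ccl4 and Arl4c, named after their values were seen. Csf1, the growth factor of monocytes and macrophages, had an FPKM of 17.9 in AAV-Ctrl 1 and 11.1 in AAV-Ctrl 2 against 68.0 in AAV-IL-27, at a distance of 0.32 log2 units from the Clec4n profile. Its difference of 2.19 was close to the 2.20 of Clec4n, and it shared the lower AAV-Ctrl 2 value. The chemokine genes Ccl3 (9.63, 8.44 and 39.2) and Ccl4 (4.0, 3.51 and 16.4) and the immediate early gene Egr1 (2.11, 1.57 and 14.0) were also highest in AAV-IL-27, with AAV-Ctrl libraries closer together than for Clec4n. Arl4c, encoding a small GTPase, had 12.5, 8.39 and 26.9. With 3 libraries, a profile has few points, and nearness over them says nothing of shared control.

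Further marker lists also differed in the AAV-IL-27 library. All 5 megakaryocyte and platelet markers lay below both AAV-Ctrl libraries, with a summed FPKM of 51.9, 58.0 and 9.55, and 3 were called lower, Pf4, Ppbp and Itga2b. The platelet receptor gene Clec1b, in the cluster of Clec7a, had a difference of -0.25. Of the 6 eosinophil and basophil markers tested, 4 lay below both AAV-Ctrl libraries and 1, Siglecf, above both, with a median of -0.46, and Ccr3 was called lower, at 14.4, 12.9 and 2.16. The 4 early granule markers were above both AAV-Ctrl libraries, with a median of 0.33 and 0 calls. The part of these lists in the receptor values was not tested.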
